A study of Medicago truncatula with 160 samples.

Results

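NODULE INCEPTION (NIN, MtNIN) was followed through nodules of Medicago truncatula as 1 gene, MtrunA17_Chr5g0448621, which its identifier places on chromosome 5 of the A17 r5.0 genome. It was chosen by that identifier, and it is 1 of 49928 M. truncatula genes and of 56121 genes of both organisms in the deposited table. The data are nodule RNA-seq libraries from 2 inbred host lines, A17 and DZA, each inoculated with 1 of 20 natural Sinorhizobium (Ensifer) meliloti strains in single-strain inoculations, with 4 plants for each host and strain and 160 libraries in all. Plants were grown in a greenhouse in a sterilized mix of turface, sand and soil, RNA came from their nodules, and uninoculated plants were not analysed here. In such bulk tissue fewer cells that express a gene and less RNA of it per cell cannot be told apart. Reads from DZA plants were mapped to the A17 reference, and a difference between the hosts cannot be told apart from a difference in mapping.

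NIN is a transcription factor of the RWP-RK family. Nod factors from rhizobia are perceived at the root surface, a calcium signal is decoded in the nucleus, and NIN is then switched on, where it is required both for the infection threads that carry rhizobia inwards and for the cell divisions that build the nodule. It activates the CCAAT-box factor subunit NF-YA1 and the small CLE peptides that limit nodule number, and in mature indeterminate nodules it is also active near the apex, where cells divide and become infected.

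NIN was detected in every library. Levels are given in CPM, the counts of a gene relative to all plant counts of its library after TMM scaling, a correction that keeps a few very abundant genes from setting the scale. On A17 the 80 plants ranged from 16.1 to 271 CPM with a median of 191. On DZA the 80 plants ranged from 71.4 to 301 CPM with a median of 186. The lowest A17 plant, number 3110 of strain 216, stood apart, since the next lowest A17 plant had 91.9 CPM. It rested on 61 NIN counts, for which the exact 95% Poisson interval of counting error is 12.3 to 20.7 CPM. The lowest DZA plant, number 3314 of strain 748B, held 200 NIN counts, with an interval of 61.8 to 82.0 CPM. Median NIN counts were 6932 on A17 and 6080 on DZA, so counting error was small beside the spread between plants for most libraries.

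Some facts of the whole series bear on these values. Library totals ran from 28474900 to 75617900 counts, of which plant genes held 2282940 to 58578400. The S. meliloti share of all counts, called the rhizobial share here, ran from 5.35% to 96.3% on A17 and from 3.68% to 87.5% on DZA. The 10 plant genes with the largest totals together took 18.4% to 83.3% of all plant counts in single libraries. A check of 541 S. meliloti genes that were off in some strains and on in others set 8 libraries apart, 5 on A17 and 3 on DZA: their profile correlated at most 0.779 with the other libraries of their strain, against at least 0.930 for the other 152. Of these, plant 3514 of strain 89 on A17 expressed the genes of strain 724B and plant 3406 of strain 182 on DZA those of strain 176A. No library was nearest to the other host. Of 6 genes that mark nodule tissue, 5 were above 0 in every library and MtNAD1 was at 0 in 1 DZA library.

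The hosts carried the same strains, so the first comparison asked whether NIN differed between them. No difference in NIN was found. Mean NIN was 185 ± 45.9 CPM (SD, n = 80) on A17 and 182 ± 48.3 CPM (SD, n = 80) on DZA. On the log2 CPM scale the strain mean was higher on A17 for 11 of 20 strains and on DZA for 9, and for all 20 strains the plants of the hosts overlapped. The log2 difference, DZA minus A17, was -0.03 (SE 0.07), with a 95% interval from -0.17 to 0.11, and the edgeR quasi-likelihood test with strain as a block gave an adjusted p of 0.75. That interval spans 0.891-fold to 1.08-fold. In the same fit 53.3% of the genes tested were called, with 27.2% of the genes tested higher and 26.1% lower on DZA, and the median log2 difference of all genes was 0.08.

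Across the 20 strains no difference in NIN was found on either host. On A17 strain means ran from 234 ± 26.8 CPM (SD, n = 4) for strain 89 to 151 ± 45.4 CPM (SD, n = 4) for strain 204. The 4 plants of strain 89 had 202, 221, 252 and 259 CPM, and those of strain 204 had 97.7, 148, 149 and 209 CPM. Their ranges overlapped between 202 and 209 CPM. Strain 89 kept a mean of 228 ± 29.2 CPM (SD, n = 3) without the plant that expressed the genes of strain 724B. Between these ends lay strain 216, whose plants had 16.1, 185, 211 and 217 CPM, and strain 746B, whose mean of 184 ± 5.39 CPM (SD, n = 4) had the narrowest spread.

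On DZA strain means ran from 243 ± 76.0 CPM (SD, n = 4) for strain 282 to 146 ± 52.3 CPM (SD, n = 4) for strain 206. The plants of strain 282 had 132, 260, 285 and 296 CPM. Those of strain 206 had 105, 115, 143 and 221 CPM, so that even these ends of the order overlapped. Strain 182 followed strain 282 with 215 ± 22.6 CPM (SD, n = 4), and strains 216, with 153 ± 54.0 CPM (SD, n = 4), and 748B, with 156 ± 63.2 CPM (SD, n = 4), stood just above strain 206. Strains 282 and 283, which the gene check could not tell apart, stood first and seventh with 243 and 193 CPM.

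**Figure D1:**
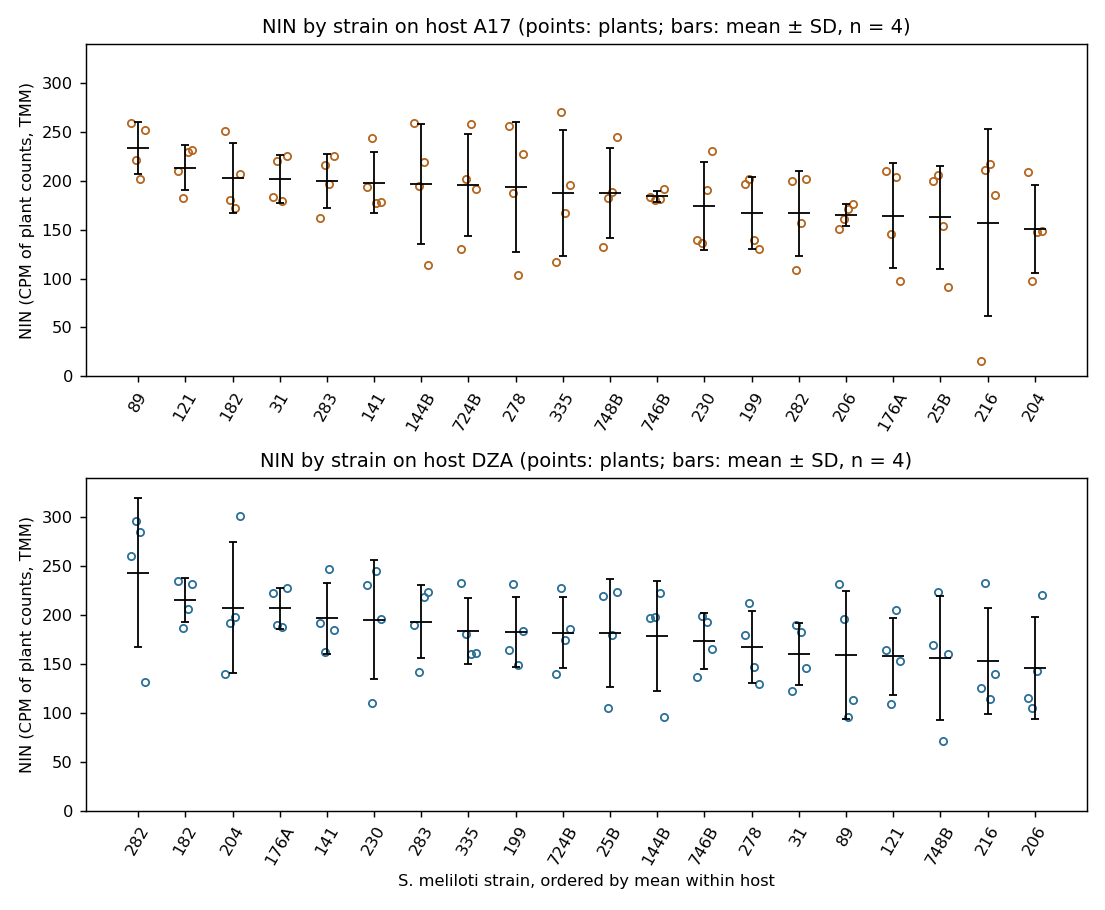
NIN in CPM of plant counts (TMM) for each plant (points) by S. meliloti strain on A17 and DZA, with strains in order of their mean and bars for the mean ± SD of 4 plants. Strain means run from 234 to 151 CPM on A17 and from 243 to 146 CPM on DZA, and plants of neighbouring strains overlap throughout.

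Neighbours in this order did not separate. In all 19 neighbouring pairs on each host the ranges of the plants overlapped, as they did in 190 of 190 pairs of strains on DZA and 182 of 190 on A17. On the log2 scale the SD within strains was 0.42 on DZA and 0.54 on A17, and the SD between strain means was 0.20 and 0.24. The A17 value within strains leaned on plant 3110 of strain 216, with 16.1 CPM. The SD of strain 216 was 1.83 on A17, and the next widest there was 0.58, for strain 278. The mean square between strains was 0.918 of that within strains on DZA and 0.752 on A17, so the estimated share of the variance that lay between strains was 0% on both hosts. The A17 estimate was not made without plant 3110. The edgeR F test over the strain coefficients gave an adjusted p of 1 on both hosts. On A17 its unadjusted p moved from 0.95 to 0.20 without replicate 1, which holds plant 3110. The adjusted p was then 0.98. Of all genes tested, 4.20% were called for strain on DZA and 1.62% on A17. The test of whether the strain pattern differed between hosts gave an adjusted p of 1 (edgeR), with 1.06% of all genes called.

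The order of the strains on 1 host was not found again on the other. With an estimated 0% of the variance between strains on each host, this comparison could not decide whether an order is shared. Over 20 pairs of strain means of log2 CPM, Pearson's r was -0.04 (permutation p = 0.88, adjusted p = 0.88 over 3 relations) and Spearman's rho was -0.16 (permutation p = 0.49, adjusted p = 0.49). Without strains 89 and 216, which lay farthest from the A17 median, r was -0.26 (permutation p = 0.30). The value was not stable: it was -0.39 (permutation p = 0.092) without the highest-share library of each host, and it ran from -0.47 (permutation p = 0.039) to 0.19 with each replicate number left out in turn. On the log2 scale strain 89 showed the widest gap, with 234 ± 26.8 CPM (SD, n = 4) on A17 and 159 ± 65.3 CPM (SD, n = 4) on DZA, where its plants had 95.8 to 232 CPM and overlapped those on A17. In the opposite direction strain 282 had 167 ± 43.6 CPM (SD, n = 4) on A17 and 243 ± 76.0 CPM on DZA, and its plants overlapped too.

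The rhizobial share of a library asks a different question: whether NIN changed with the S. meliloti part of the counts of a library. The share is a fraction of counts, and the amount of S. meliloti RNA in a nodule was not measured. The plant reference for mapping included ribosomal RNA, and its part in the share was not tested. The libraries were poly(A)-selected, and the part of that selection in the share was not tested either. NIN was lower in the plants with the highest shares, on both hosts, and neither call held among libraries with a share of at most 50%. On DZA the 4 plants with the lowest share, 3.68% to 7.51%, had 235, 301, 296 and 222 CPM. The 4 with the highest share, 79.0% to 87.5%, had 105, 113, 71.4 and 123 CPM. On A17 the 4 plants with the lowest share, 5.35% to 7.56%, had 252, 200, 178 and 258 CPM. The 4 with the highest, 65.6% to 96.3%, had 117, 91.9, 131 and 16.1 CPM. The sets did not overlap on either host. Plants 3514, 3246 and 3435 on A17 and plant 3292 on DZA were among the 8 libraries that the gene check set apart. Within strains, the plant with the highest share had less NIN than the plant with the lowest share in 18 of 20 strains on DZA and in 15 of 20 on A17.

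In fits with strain as a block, NIN fell by 0.10 on the log2 scale (SE 0.02) for each 10 percentage points of share on DZA, which is a fall by 6.77%, with an adjusted p of 2.5e-05 (edgeR). On A17 it fell by 0.11 (SE 0.03), or by 7.47%, with an adjusted p of 1.3e-04. Among all genes tested, 60.1% were called on DZA, where 32.1% rose and 28.1% fell with the share, and 64.8% on A17, where 34.5% rose and 30.3% fell, so that most genes were called in 1 direction or the other. The median slope of all genes was 0.01 on both hosts. A slope below that of NIN was found for 25.3% of the genes on DZA and 25.8% on A17. The slopes of the hosts differed by 0.03 (SE 0.03), DZA minus A17, with an adjusted p of 0.73 and a 95% interval from -0.04 to 0.09. For that difference 5.61% of all genes were called, 3.47% higher and 2.14% lower on DZA.

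**Figure D2:**
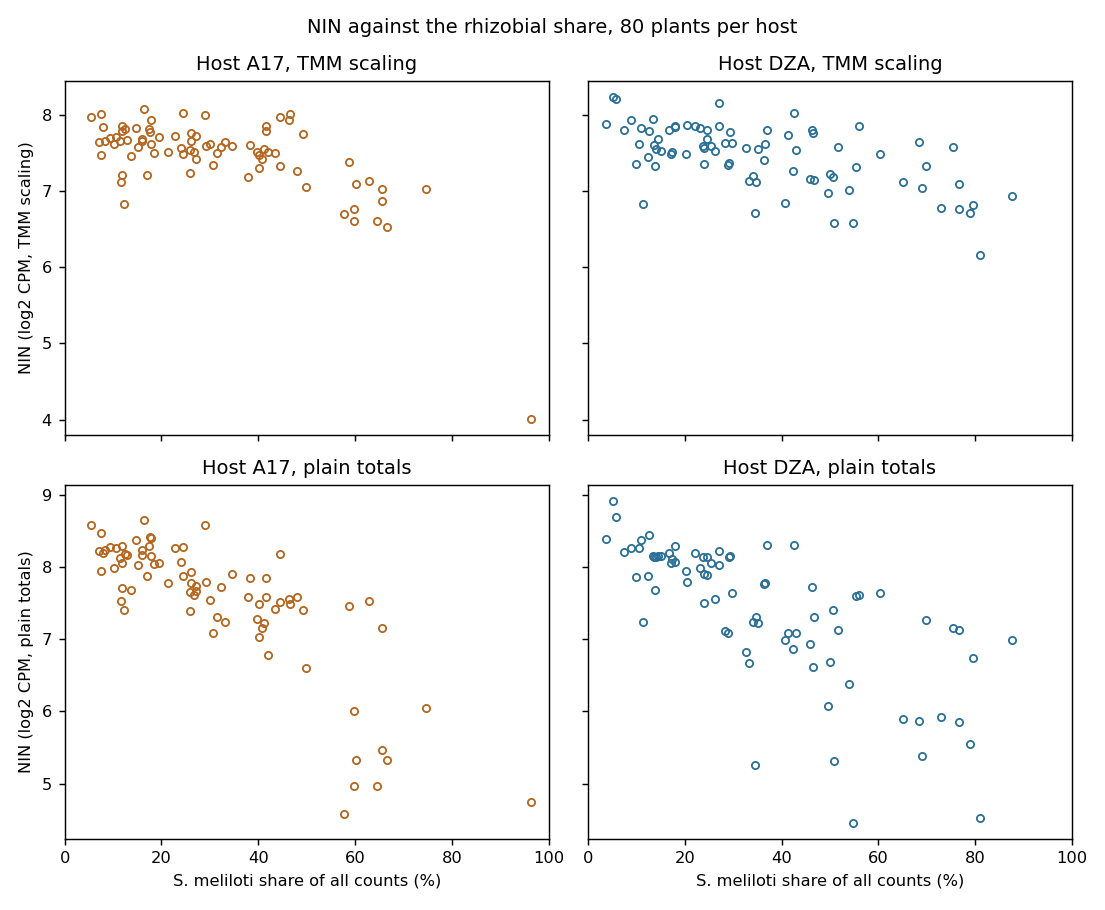
NIN in log2 CPM against the S. meliloti share of all counts in percent, with 1 point for each of 80 plants on A17 (left) and DZA (right), scaled by TMM (top) and by plain plant totals (bottom). The lowest A17 point in the top row is plant 3110 of strain 216, with 16.1 CPM at a share of 96.3%, and the fall is steeper with plain totals than with TMM.

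The size of this slope moved with the scaling. With plain plant totals in place of TMM the slope of NIN was -0.34 on DZA and -0.37 on A17, the median slope of all genes moved to -0.23 on both, and the calls turned from 53.3% upward to 12.6% upward on DZA and from 53.2% to 19.9% on A17. In a DESeq2 fit, which changes the size factors, the dispersion and the test together, the slope was -0.04 (adjusted p = 0.020) on DZA and -0.05 (adjusted p = 0.0094) on A17, the median of all genes was 0.07 and 0.08, and 70.9% and 69.8% of the calls were upward. Taken as a difference from the median of all genes, the slope of NIN was -0.11 on DZA in all 4 fits and between -0.13 and -0.12 on A17. The fits were edgeR with TMM, with TMM without the 10 largest plant genes and with plain totals, and DESeq2. Those 10 genes held 23.1% to 29.1% of the plant counts in the 4 DZA plants with the lowest share and 51.8% to 79.9% in the 4 with the highest. On A17 the corresponding values were 23.2% to 27.1% and 51.5% to 70.7%. With these genes left out of the scaling the slopes were -0.12 on DZA and -0.14 on A17.

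Plants above and below a share of 50% were also set side by side. On A17 the 68 plants with a share of at most 50% ranged from 114 to 271 CPM with a median of 197, and the 12 plants above 50%, of 10 strains, ranged from 16.1 to 167 CPM with a median of 113. On DZA the 60 plants at or below 50% ranged from 105 to 301 CPM with a median of 194, and the 20 plants above it, of 13 strains, ranged from 71.4 to 232 CPM with a median of 134. The groups overlapped on both hosts. Among the libraries at or below 50%, a limit chosen after the data were seen, the slope of NIN was 0.0030 (SE 0.03, adjusted p = 0.94, edgeR) on A17 and -0.07 (SE 0.04, adjusted p = 0.14) on DZA, so neither call held. Without the library with the highest share, plant 3110 of strain 216, the A17 slope was -0.08 (SE 0.02, adjusted p = 0.0011). On DZA the corresponding slope was -0.10 (adjusted p = 4.7e-05). Without the 8 libraries that the gene check set apart, the slope was -0.13 on DZA (adjusted p = 6.5e-07, edgeR). On A17 it was then -0.12 (adjusted p = 7.9e-04, edgeR).

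Over strain means the relation pointed the same way, but these means average the same plants and are not a separate observation. On DZA mean log2 CPM of NIN and mean rhizobial share had Pearson's r = -0.51 over 20 strains (permutation p = 0.022, adjusted p = 0.033 over 3 relations) and Spearman's rho = -0.50 (permutation p = 0.026, adjusted p = 0.039). Strains 25B and 31 had the mean shares most distant from the median, and leaving them out gave r = -0.54 (n = 18, permutation p = 0.022). On A17 r was -0.60 (permutation p = 0.0037, adjusted p = 0.011) and rho was -0.59 (permutation p = 0.0072, adjusted p = 0.022), and without strains 31 and 121 r was -0.54 (permutation p = 0.019, n = 18). Without the highest-share library, plant 3110 of strain 216, r on A17 was -0.53 (permutation p = 0.016, adjusted p = 0.047). Without that of DZA, r there was -0.48 (permutation p = 0.031, adjusted p = 0.047). The mean square of the share between strains was 1.14 times that within strains on DZA and 0.457 times on A17. A relation between strains can therefore not be told apart here from the relation among plants. With the 10 largest plant genes left out of the scaling, r was -0.46 on DZA (adjusted p = 0.060) and -0.52 on A17 (adjusted p = 0.054), short of the threshold on both.

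**Figure D3:**
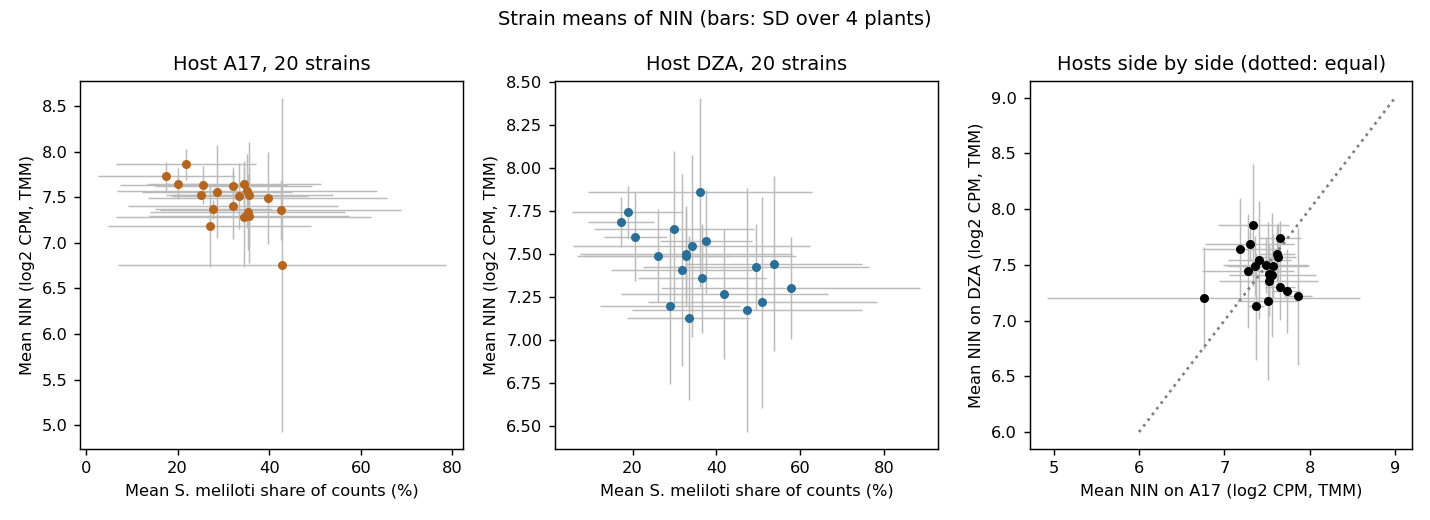
Strain means of NIN in log2 CPM against the mean S. meliloti share in percent on A17 (left) and DZA (middle), and strain means on DZA against A17 (right, dotted line for equal levels), with bars for the SD of 4 plants. The means fall with the share at r = -0.60 on A17 and r = -0.51 on DZA, and the hosts show no common order, at r = -0.04.

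The genes around NIN were read from 4 lists of 30 named nodulation genes, which were drawn up with earlier results of these data known. All 30 passed the filter on low counts in every fit. Upstream of NIN stand the Nod factor receptor kinase MtLYK3, the receptor-like kinase MtDMI2, the nuclear ion channel MtDMI1 and the calcium- and calmodulin-dependent kinase MtDMI3. Of these 4 genes 3 fell with the share on DZA and 2 on A17, and none rose (1 did on A17 with DESeq2). Among all genes 28.1% fell and 32.1% rose on DZA, and 30.3% fell and 34.5% rose on A17. With DESeq2 47.2% of all genes rose on A17. MtDMI3, which decodes the calcium signal, ranged from 3.21 to 38.7 CPM with a median of 16.3 on DZA, and from 2.37 to 35.7 CPM with a median of 18.2 on A17. It had a slope of -0.32 on both hosts (SE 0.03, adjusted p = 1.2e-12 on DZA and 5.6e-16 on A17). MtDMI2 had slopes of -0.21 (SE 0.03) and -0.23 (SE 0.02). MtLYK3 was barely expressed, with medians of 0.447 and 0.421 CPM, and its slope passed the threshold on DZA (-0.19, adjusted p = 0.025) and not on A17 (-0.17, adjusted p = 0.067). MtDMI1 had slopes of 0.01 and 0.0064 that did not pass on either host. None of the 4 was called between hosts, beside 53.3% of all genes. Nor was any called between strains, beside 4.20% of all genes on DZA and 1.62% on A17.

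Of 8 genes of infection, 3 fell with the share on each host, beside 28.1% of all genes on DZA and 30.3% on A17: MtVAMP721d, a vesicle protein, the remorin MtSYMREM1, a scaffold of receptor domains in the membrane, and MtVPY (Vapyrin), which infection threads need to progress. Their slopes were -0.19, -0.19 and -0.15 on DZA and -0.17, -0.24 and -0.19 on A17. MtFLOT2, a flotillin, rose by 0.07 on both hosts (adjusted p = 0.018 on both) under TMM, had no call without the 10 largest plant genes, and fell with plain totals (-0.17 on DZA and -0.18 on A17). MtFLOT4, MtRbohG, MtNAP1 and MtCBS1 did not pass. Among these genes the flotillins were called for strain: MtFLOT2 (adjusted p = 8.0e-06) and MtFLOT4 (adjusted p = 0.0027) on DZA, and MtFLOT4 on A17 (adjusted p = 0.023). For strain 4.20% of all genes were called on DZA and 1.62% on A17. With plain totals none of the strain calls of the flotillins held. The flotillins are related genes, and how reads were divided between them was not tested. Between hosts, where 53.3% of all genes were called, 6 of the 8 were called, 3 higher on DZA (MtVAMP721d, MtRbohG and MtFLOT4) and 3 lower (MtVPY, MtSYMREM1 and MtCBS1).

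The list of targets and number control held MtNF-YA1, a direct target of NIN, the peptides MtCLE12 and MtCLE13, the F-box proteins MtTML1 and MtTML2 of the autoregulation pathway, the transporter MtLATD/NIP and the cyclin MtCycA2-4. MtNF-YA1 ranged from 22.8 to 134 CPM with a median of 77.1 on DZA and from 8.18 to 116 CPM with a median of 66.5 on A17. It fell with the share on DZA (-0.10, SE 0.02, adjusted p = 3.6e-04) and on A17 (-0.07, SE 0.03, adjusted p = 0.023), and with DESeq2 neither call held (adjusted p = 0.086 and 0.70). Of the 7 members, 4 fell on DZA and 3 on A17, and none rose, where DESeq2 left 1 on each host. Among all genes 28.1% fell on DZA and 30.3% on A17, and with DESeq2 18.2% and 20.4%. MtCLE12 had the steepest slope of the list on DZA, -0.26 (SE 0.07, adjusted p = 0.0021), at a median level of only 0.783 CPM. MtTML2 fell on A17 (-0.21, SE 0.04, adjusted p = 1.2e-05) and did not pass on DZA (-0.06, adjusted p = 0.16), and the difference of its slopes did not pass (adjusted p = 0.072). MtTML2 was the 1 member called for strain, on DZA (adjusted p = 0.030), beside 4.20% of all genes there. Between hosts 4 of 7 were higher on DZA and none lower, beside 27.2% and 26.1% of all genes: MtCLE13 by 0.48 (SE 0.12), MtNF-YA1 by 0.21 (SE 0.07), MtLATD/NIP by 0.32 (SE 0.12) and MtTML2 by 0.30 (SE 0.12), of which plain totals left 1.

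Genes of late nodule development mostly fell with the share. Of 11 members 10 fell on DZA and 9 on A17, and none rose, beside 28.1% of all genes falling on DZA and 30.3% on A17. With DESeq2 7 fell on each host and 1 rose on DZA. In the DESeq2 fits 18.2% of all genes fell on DZA and 20.4% on A17, and 44.2% and 47.2% rose. MtNCR169, a nodule-specific cysteine-rich peptide that bacteroids need to differentiate, ranged from 8.37 to 314 CPM with a median of 70.6 on DZA and from 2.11 to 301 CPM with a median of 107 on A17. Its slopes were -0.47 (SE 0.05) on DZA and -0.51 (SE 0.06) on A17. MtVTL8/SEN1, an iron transporter of infected cells, had slopes of -0.31 (SE 0.03) and -0.29 (SE 0.04). MtNAD1 and the receptor-like kinase MtSymCRK, which both keep defence reactions low in infected cells, had slopes of -0.31 and -0.29 on DZA and -0.37 and -0.34 on A17. MtNPD1, a PLAT-domain protein of the nodule, had a slope of -0.20 on both hosts. No member of the list was called for strain, beside 4.20% of all genes on DZA and 1.62% on A17. Between hosts 8 of 11 were called, 3 higher and 5 lower on DZA, beside 53.3% of all genes.

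**Figure D4:**
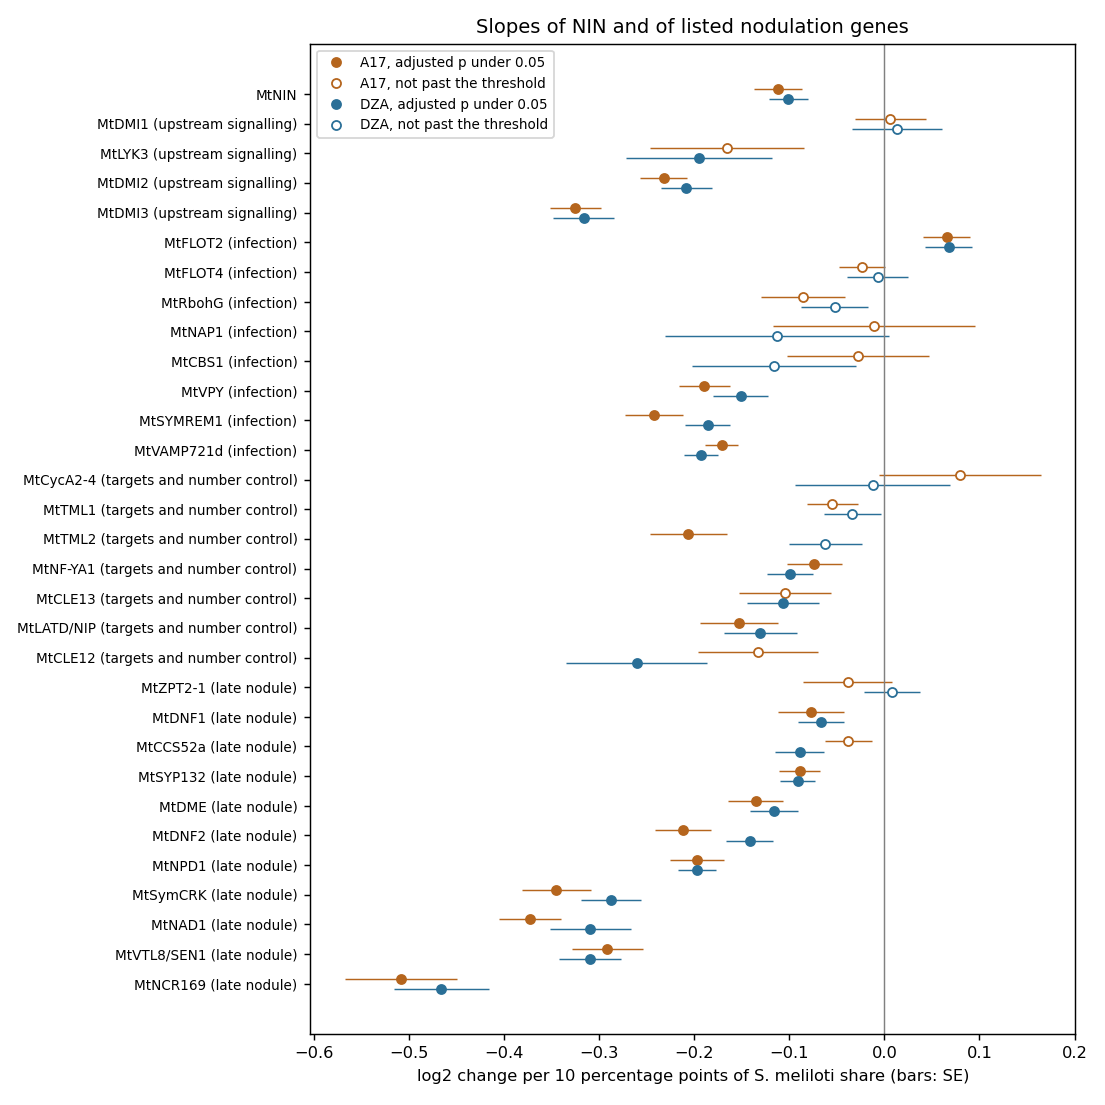
Slopes on the rhizobial share, as log2 change per 10 percentage points with SE bars, for NIN and 30 listed nodulation genes on A17 and DZA, with filled points past an adjusted p of 0.05 and open points not. NIN lies at -0.11 on A17 and -0.10 on DZA, above MtNCR169, MtNAD1, MtSymCRK, MtVTL8/SEN1 and MtNPD1 on both hosts, while the nodule marker MtDNF1 lies at -0.08 and -0.07.

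Over the 4 lists 20 genes fell and 1 rose with the share on DZA, and 17 fell and 1 rose on A17, beside 28.1% falling and 32.1% rising among all genes on DZA and 30.3% and 34.5% on A17. The median slope over the 30 genes was -0.12 on DZA and -0.13 on A17, against 0.01 over all genes. With DESeq2 13 fell and 2 rose on each host, beside 18.2% of all genes falling on DZA and 20.4% on A17. In the same DESeq2 fits 44.2% of all genes rose on DZA and 47.2% on A17. With plain totals 30 fell on DZA and 29 on A17, where 61.2% and 60.8% of all genes fell. Among libraries with a share of at most 50%, 12 fell and 1 rose on DZA, and 14 fell and 3 rose on A17. In those fits 9080 of 33582 genes were called in either direction on DZA and 13294 of 33557 on A17. How these calls divided between rising and falling is not given here, so the list counts have no matching share beside them. The lists share their libraries with NIN, and the share itself, depth and composition all move together in these libraries. Their part in the slopes was not tested.

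All 6 nodule markers, MtNCR169, MtNAD1, MtSymCRK, MtVTL8/SEN1, MtDNF1 and MtNPD1, fell with the share on both hosts, and MtDNF1 was not called with DESeq2. Their summed level ran from 70.3 to 914 CPM on DZA with a median of 444, and from 14.0 to 1026 CPM on A17 with a median of 564. In the 4 plants with the lowest share it was 489 to 819 CPM on DZA and 710 to 1026 CPM on A17. In the 4 with the highest it was 70.3 to 255 CPM on DZA and 14.0 to 294 CPM on A17, where the lowest value belongs to the library with the fewest plant counts, 2282940. The part of these markers in the slope of NIN was not tested.

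To describe which genes had a pattern most like that of NIN, likeness was taken as the smaller of the 2 Pearson correlations with NIN over 20 strain means of log2 CPM on each host, among 18605 genes with a mean of at least 1 CPM on both. These points share libraries and scaling, and the median r over all genes compared was 0.19 on DZA and 0.36 on A17. All A17 correlations include plant 3110 of strain 216, with 16.1 CPM of NIN, and were not made without it. A likeness over 0.8 was found for 4 genes. The most like was MtrunA17_Chr2g0326581 (r = 0.83 on DZA and 0.85 on A17), followed by MtrunA17_Chr4g0049721 (r = 0.83 and 0.82). The 8 most like genes, which the sources used here do not name, reached at least 0.79 on each host. Within strains, over the deviations of 80 plants from their group means, r with NIN ranged among those 8 from -0.10 to 0.78 on DZA and from 0.69 to 0.89 on A17.

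Among the listed genes MtCCS52a, an activator of the endoreduplication that enlarges nodule cells, came nearest, at rank 16 of 18605 with r = 0.78 on both hosts. MtNF-YA1 came next at rank 115, with r = 0.70 on DZA and 0.92 on A17, and r = 0.79 and 0.80 within strains. Its A17 values again include plant 3110 of strain 216. MtDMI2 followed at rank 164 and MtDNF1, a subunit of the signal peptidase complex that processes cysteine-rich peptides, at rank 280. MtFLOT4, which was called for strain, had r = 0.01 on DZA and 0.33 on A17. MtTML1 was the 1 listed gene with a negative likeness, at r = -0.16 on DZA and 0.42 on A17.

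**Figure D5:**
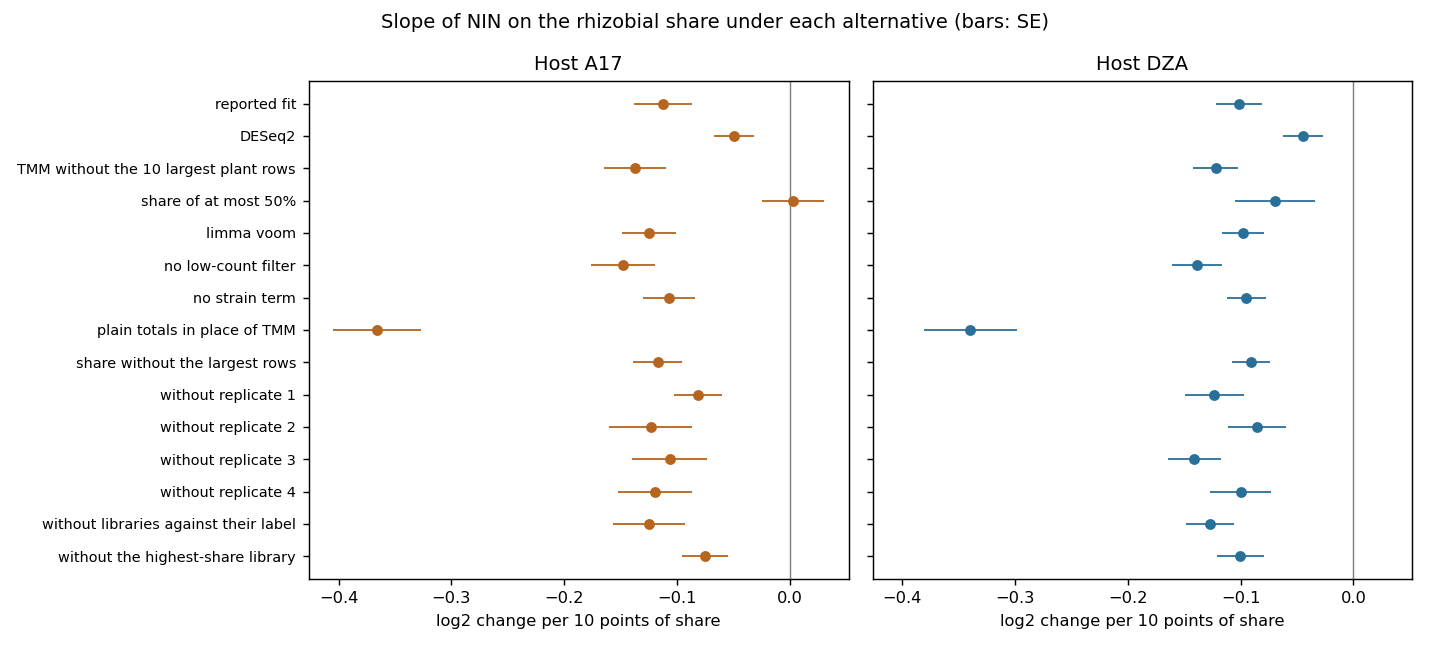
Slope of NIN on the rhizobial share, as log2 change per 10 percentage points with SE bars, in the reported fit and under each alternative on A17 (left) and DZA (right). The slopes run from -0.37 with plain totals to 0.0030 among libraries with a share of at most 50% on A17, and from -0.34 with plain totals to -0.04 with DESeq2 on DZA.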

How the data were processed

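NIN was taken by its identifier, and both the choice of this gene and the gene lists were made with earlier results of these data known. RNA from nodules was sequenced as stranded, poly(A)-selected libraries on an Illumina NovaSeq. The authors deposited expected counts (estimated counts, not whole numbers) made with Salmon against the combined A17 r5.0 transcripts and genes of the S. meliloti reference strain and imported with a bias correction, and the submitters' processing notes name bcl2fastq 2.20, Salmon 1.4.0 and R 4.1.0. Mapping of both hosts and 20 strains to 1 reference each can lower the counts of diverged genes.

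The deposited counts were rounded, plant genes were kept where at least 10 counts stood in at least 4 libraries of a fit, and TMM scaling and quasi-likelihood F tests were run in edgeR 4.0.16 (R 4.3.3), with Benjamini-Hochberg adjustment over all genes tested and a threshold of 0.05. The host fit and the slope fits carried strain as a block. The dispersion trend was estimated from every 8th gene, and log2 CPM used a prior count of 2. Alternatives were DESeq2 1.42.0, limma voom (limma 3.58.1), other scalings and filters, and leaving out plants. Permutation tests over strain means used 100000 resamples, two-sided (scipy 1.17.1). The scripts were tested on simulated data.

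Named genes were NIN, all members of the 4 lists by count, and the 8 genes most like NIN, of which 2 are printed. Values were planned for up to 3 members of smallest p in each list and fit. Some of these, such as the slopes of MtLATD/NIP, are not printed. Further genes were described after their values were seen. Plants are separate individuals of 1 greenhouse experiment. Counting error is small at these depths: the widest 95% Wilson interval of a rhizobial share was 0.0360 percentage points. Such intervals cover counting error only. All per-sample columns were used. Genes of the pathway that the sources used here do not pair with an identifier, and the sequence of NIN, were not analysed here.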

Additional observations from a re-analysis of the deposited data

Results flagged for a closer look

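In each of the 40 groups of 4 plants, the lowest and highest NIN level were compared with the other plants of the group, and 1 group held a plant far from the rest, where chance alone would give about 2. This was plant 3110 of strain 216 on A17, with 16.1 CPM beside 185, 211 and 217 CPM in the other plants. Its rhizobial share of 96.3% was the highest of all libraries, and its plant total of 2282940 counts was the lowest. The part of share and depth in this level was not tested.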

How the results depend on the processing

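Of 116 alternative values, 101 kept their side of the threshold and, where the value has a direction, that direction. The F tests over strains and over the interaction have no direction, so only the threshold was compared there. Among libraries with a share of at most 50%, chosen after the data were seen, the slope on A17 turned to 0.0030 (adjusted p = 0.94), that on DZA was -0.070 (adjusted p = 0.14), and the difference of slopes turned to -0.079 (adjusted p = 0.62). The host difference, not called in any fit, turned to 0.033 with the rhizobial share as a covariate. The difference of slopes, also never called, turned to -0.0081 with DESeq2 and to -0.018 without the highest-share library of each host. With the 10 largest plant genes left out, r over strain means was -0.46 on DZA (adjusted p = 0.060), -0.52 on A17 (adjusted p = 0.054) and 0.038 between hosts, and with the largest genes left out of the share it was -0.46 on DZA (adjusted p = 0.060). The cause was not tested.

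With each replicate number left out in turn, the slopes ranged from -0.14 to -0.09 on DZA and from -0.12 to -0.08 on A17, their difference from -0.021 to 0.048, and r between hosts from -0.47 (permutation p = 0.039, without replicate 1) to 0.19.

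Counts of called genes also moved. For strain on DZA, 1436 genes became 551 to 3367, on A17 564 became 90 to 3721, for the interaction 399 became 59 to 2082, and for the difference of slopes 2113 became 160 to 3616. The slope calls fell from 20583 to 9080 on DZA and from 22578 to 13294 on A17 among libraries with a share of at most 50%. No paired analysis was possible because plant numbers are not shared between groups. Depth limits the plants with the highest shares, where plant counts were fewest.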
